A study of Rattus norvegicus with 232 samples.

Results

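The opioid receptors and the precursors of their peptides were followed across inbred rat strains in brain RNA. The set held 6 genes of the 20859 in the table and was chosen by name: the receptor genes Oprm1 (mu), Oprd1 (delta), Oprk1 (kappa) and Oprl1 (nociceptin), and the precursor genes Pnoc and Pomc. All 6 were measured, each as 1 row. The study sequenced ribosome-depleted total RNA from brains of naive, untreated rats of the Hybrid Rat Diversity Panel, labelled as whole brain, although for its own strains it states that 1 side of a sagittally divided brain was used. Sex was labelled as male where a label was given, the study describes adult males for its own strains, and the labels give no age. The table held 214 libraries of 197 animals from 74 strains: 88 animals of 30 HXB/BXH recombinant inbred strains, bred from BN-Lx/Cub and SHR/OlaIpcv, 43 animals of 19 FXLE/LEXF recombinant inbred strains, bred from F344/Stm and LE/Stm, and 66 animals of 25 classic inbred strains, which include the 4 progenitors. Of the strains, 54 had 3 animals, 15 had 2 and 5 had 1 (BUF/MnaMcwi, FXLE13/Stm, LE/Stm, LEXF2B/Stm and LEXF9/Stm).

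The 4 receptors are G protein-coupled and act through inhibitory G proteins, which lower cyclic AMP, open inwardly rectifying potassium channels and close voltage-gated calcium channels. Precursor proteins are cut by prohormone convertases: pro-opiomelanocortin, from Pomc, yields beta-endorphin as well as melanocortins and ACTH, and prepronociceptin, from Pnoc, yields nociceptin, the ligand of the Oprl1 receptor. In the brain Pomc is made by few neurons of the arcuate nucleus of the hypothalamus, and outside the brain by the pituitary, which lies against the base of the brain and can stay attached when a brain is taken out.

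Levels are log2 values that the authors had scaled across libraries, so 1 unit is a doubling of the scaled value. The study used a regularized log for an earlier release, and whether these values had it is not given. Folds are therefore those of the scaled values and may differ from folds of RNA, above all for genes of low level. No read count was given, so the sequencing depth is unknown. Library medians lay between 8.185 and 8.424. In LE/Stm 2, the only animal of that progenitor, the mean of 6 liver genes was 18.12 against a median over animals of 7.834, and the next highest animal, BXH6/Cub 3, had 14.66. Along with LE/Stm 2, the 3 libraries labelled LEW/Crl stood apart or went against their labels in earlier results of these data. Leaving out these 4 animals, which leaves 193 animals of 72 strains, changed no call of a strain effect on a member gene. In bulk tissue, fewer cells of a type and less RNA per cell cannot be told apart.

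Upstream sequence was at hand for 3 of the 6 genes (RefSeq, GRCr8, 250 bases before to 50 after the start). No window was given for Oprk1, Oprl1 and Pnoc. The windows of Oprd1 and Pomc are shown because these genes had the widest spread among strains of the set. Capitals mark matches on either strand. The TATA box was searched as TATAAA. A palindromic E-box was searched by the letters CACGTG. For the GC box the search used GGGCGG. The CCAAT box, the cAMP response element TGACGTCA and its opening letters, TGACG, were searched as well and had no match in either window.
Oprd1, chr5:149624950-149625249, minus strand: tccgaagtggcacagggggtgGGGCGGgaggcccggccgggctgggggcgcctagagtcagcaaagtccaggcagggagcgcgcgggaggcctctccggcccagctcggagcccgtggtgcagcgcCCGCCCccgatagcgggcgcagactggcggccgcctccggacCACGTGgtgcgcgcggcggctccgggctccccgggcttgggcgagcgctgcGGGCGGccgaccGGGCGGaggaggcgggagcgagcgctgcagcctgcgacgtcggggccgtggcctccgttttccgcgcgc
Pomc, chr6:32659103-32659402, plus strand: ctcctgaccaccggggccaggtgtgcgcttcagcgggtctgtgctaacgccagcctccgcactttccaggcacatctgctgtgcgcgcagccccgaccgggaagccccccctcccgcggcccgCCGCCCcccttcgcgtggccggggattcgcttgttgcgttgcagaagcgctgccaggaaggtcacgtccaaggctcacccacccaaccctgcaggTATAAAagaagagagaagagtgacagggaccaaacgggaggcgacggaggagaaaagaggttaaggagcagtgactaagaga
The Oprd1 window had 79% G and C against a median of 51.67% over 33469 windows, and 1.2% of windows were at or above it. It held 4 matches to GGGCGG, a motif found in 33.1% of all windows, and 1 to CACGTG, found in 6.42%, which began at -82 from the start. The Pomc window had 64% G and C, a TATAAA match at -32, a motif found in 14.2% of windows, and a GGGCGG match at -127. The 2 windows of Oprm1, with 57.67% and 39% G and C, held none of the motifs, where CCAAT was found in 37.5% of all windows, TGACG in 21.2% and TGACGTCA in 1.83%. These matches describe the letters of the windows and carry no measurement of binding.

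The first question was how much of the spread of each gene lay between strains. Oprl1 passed the test of a strain effect, and the other 5 genes did not. This is 1 of 6 members, where 37.3% of all genes passed (limma's moderated F-test, 5% false discovery rate, FDR). R2, the share of the spread among animals that lies between strains, was used by the study as broad-sense heritability, and with 74 strains and 197 animals it averages 0.3724 when strains do not differ. R2 was 0.58 for Oprl1 (limma adjusted p = 0.000296), 0.46 for Pomc (0.0674), 0.43 for Oprd1 (0.159), 0.41 for Oprk1 (0.271), 0.38 for Pnoc (0.485) and 0.36 for Oprm1 (0.607). The median over all genes was 0.4507. Pomc was thus the only other member above that median, and Oprm1 lay below the value that unrelated strain labels give. That value rests on the numbers of strains and animals alone. It does not take into account that batch means had been made nearly equal.

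**Figure D1:**
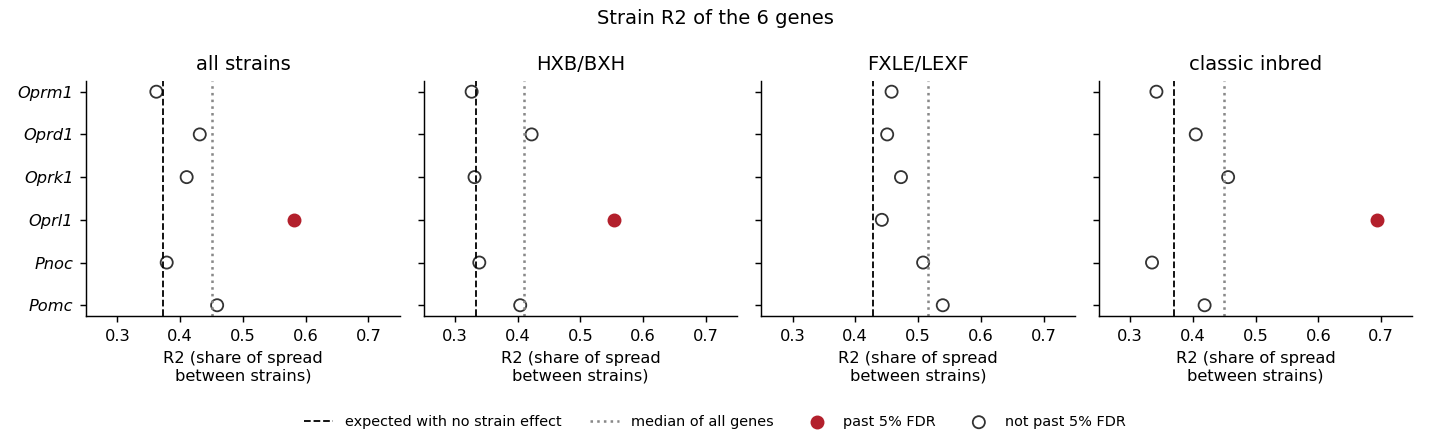
R2 of strain (x axis, share of the spread among animals that lies between strains) for the 6 genes over all strains and within each subpopulation, with the value expected without strain differences (dashed) and the median of all genes (dotted). Oprl1 stands to the right of both lines over all strains (0.58), in HXB/BXH (0.55) and in the classic inbred strains (0.69), and is the only filled point in each.

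Oprl1 encodes the nociceptin receptor, which binds none of the classic opioid peptides with high affinity. Its level over animals ran from 10.25 to 10.87 with a median of 10.58. The lowest strain was HXB27/Ipcv with animals at 10.25, 10.41 and 10.41, followed by BN-Lx/Cub with 10.30, 10.35 and 10.51. The highest was LEXF5/Stm with 10.66 and 10.86, followed by F344/NCrl with 10.71 and 10.75. The animals of the lowest pair of strains did not overlap those of the highest pair. These are the ends of 74 ordered strains, so the lack of overlap is no support for a strain effect. The fold between the extreme strain means was 1.32, and the SD within strains was 0.0892, so the range was narrow and the error small.

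Strain differences in Oprl1 passed in HXB/BXH with R2 0.55 (limma adjusted p = 0.0261), 1 of 6 members where 19.1% of all genes passed, and in the classic inbred strains with R2 0.69 (limma adjusted p = 0.00462), again 1 of 6 where 19.3% passed. In FXLE/LEXF, R2 was 0.44 (limma adjusted p = 0.668) against 0.4286 expected, and no member passed where 4.61% of genes did. Whether the families differ in this was not tested. The call over all strains held with sequencing batch as a covariate (limma adjusted p = 0.00116, where 54.2% of all genes passed). In the reconstruction, the feature of highest mean of the 4 of Oprl1 was taken, with a mean of 11.71 where the gene had 10.57. The call held in each of 3 other deposited tables: the reconstruction (where 20.2% of features passed), v6 (32.3% of genes) and v5 (63.6%). It was lost without the animals numbered 1 (limma adjusted p = 0.162) or 2 (0.104), which leaves fewer animals a strain, and held without those numbered 3 (0.0207), and within HXB/BXH and within the classic inbred strains it was lost whichever number was left out.

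Oprm1 encodes the mu receptor, the main target of morphine. Its levels lay between 7.49 and 8.28 over animals with a median of 7.94. The strains ran from HXB22/Ipcv, with animals at 7.54, 7.77 and 7.87, to LEXF10A/Stm, with 8.04, 8.10 and 8.24. These extreme strains did not overlap, but they are the ends of 74 ordered strains, and the SD of animals within strains was 0.158. The fold between the extreme strain means was 1.32.

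Oprk1, the dynorphin receptor, ran from 7.57 to 8.66 with a median of 8.14. MWF/Hsd was highest, with animals at 8.33, 8.56 and 8.66, and LEXF1C/Stm lowest, with 7.85 and 7.86. The fold between these strain means was 1.58, and the SD within strains was 0.184. MWF/Hsd was also the second highest strain of Oprm1, with 8.02, 8.05 and 8.22.

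Oprd1, the enkephalin-binding delta receptor, had the second widest range of the set. Animals lay between 4.62 and 6.09 with a median of 5.43 and an SD within strains of 0.273. HXB13/Ipcv was highest, with animals close together at 5.89, 5.99 and 6.02. Both the lowest strain, FXLE13/Stm at 4.62, and the second highest, LEXF2B/Stm at 5.85, had a single animal, so that strain and animal cannot be told apart there. Among strains with more animals BN-Lx/Cub was lowest, with 4.70, 5.06 and 5.36. Oprd1 passed the test of a strain effect when sequencing batch was a covariate (limma adjusted p = 0.0386, where 54.2% of all genes passed) and in HXB/BXH with that covariate (0.0166, where 32.1% passed). Of 3 other deposited tables it passed in the v5 table (limma adjusted p = 0.0428, where 63.6% of genes passed) and in the reconstruction (6.46e-07, where 20.2% of features passed), and it did not pass in the v6 table (0.109). The reconstruction value is that of 1 feature, the highest in mean of the 8 of Oprd1. Its mean was 8.797, against 5.454 for the gene in the main table, 5.399 in v5 and 5.435 in v6. It is therefore not a repeat of the same measure.

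Pnoc varied little, from 7.06 to 7.87 with a median of 7.43. Its lowest strain was LH/MavRrrc with animals at 7.06, 7.30 and 7.35 and its highest LEXF1C/Stm with 7.63 and 7.68. The fold between the strain means was 1.34 and the SD within strains 0.162. BN-Lx/Cub, with 7.09, 7.15 and 7.48, was second lowest for Pnoc as it was for Oprl1 and Oprd1.

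Pomc had the widest range, from 4.42 to 6.65 with a median of 5.18, and the largest SD within strains (0.386). HXB2/Ipcv was the highest strain with animals at 6.23 and 6.34, and SS/JrHsd the second highest with 5.95, 5.96 and 6.46. LEXF2B/Stm was lowest with a single animal at 4.73, and LEXF10A/Stm next with 4.63, 4.64 and 4.98. The fold between the extreme strain means was 2.94. Pomc did not pass the strain test in the fit without batch. With batch as a covariate it passed (limma adjusted p = 0.0229, where 54.2% of all genes passed). It passed without the animals numbered 2 (limma adjusted p = 0.00211) but not without those numbered 1 (0.480) or 3 (0.447). Of 3 other deposited tables it passed in the v5 table (limma adjusted p = 7.88e-07), where 63.6% of all genes passed, and not in the other two.

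Between the ends the strain means lay close together, as the means of many ordered strains must. For each of the 6 genes, all 68 neighbouring pairs of the 69 strains with 2 or more animals had overlapping animals, and 0 steps between neighbours exceeded 2 standard errors. The largest steps of the set were 0.18 from FXLE15/Stm to SS/JrHsd for Pomc and 0.18 from BN-Lx/Cub to MWF/Hsd for Oprk1.

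**Figure D2:**
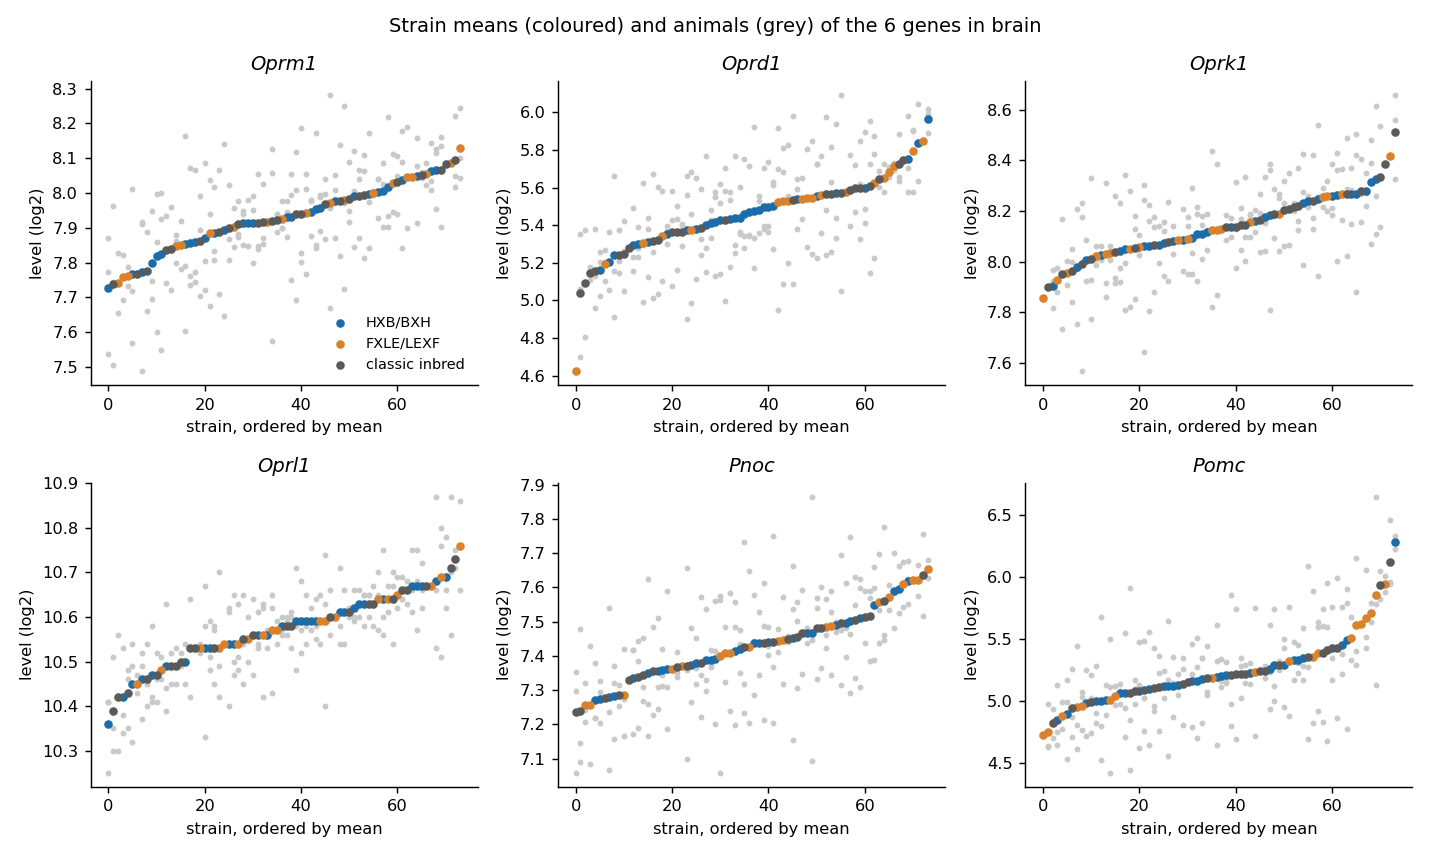
Level (y axis, log2) of each gene in 74 strains ordered by their mean (x axis), with strain means coloured by subpopulation and animals in grey. Apart from the single animal of FXLE13/Stm at 4.62 below the rest for Oprd1, the curves rise steadily and the colours mix along each curve. The tops are at 8.51 in MWF/Hsd for Oprk1 and at 6.28 in HXB2/Ipcv for Pomc. Batch means had been made nearly equal and the recombinant families were in different batches, so the mixing of colours says little about family differences.

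The next question was how the genes behaved in the recombinant families, whose strains carry mixtures of 2 progenitor genomes. In HXB/BXH, the strain means of Oprd1 lay above both progenitors in 30 of 30 strains. BN-Lx/Cub stood at 5.04 and SHR/OlaIpcv at 5.14, and the lowest of the 30, HXB25/Ipcv, at 5.16. Among all genes, 0.594% had the whole family above both progenitors. With strain means adjusted for batch the count for Oprd1 was 27 of 30. The progenitors are few, 3 animals of BN-Lx/Cub and 2 of SHR/OlaIpcv, so the position of the family depends on 5 animals.

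For scale, the median over all genes in HXB/BXH was 7 strains above, 11 between and 7 below. At least 20 strains lay above both progenitors in 15.4% of genes, between them in 19.3% and below both in 12.9%, so counts of 20 were not rare. Oprk1 had 0 strains above, 10 between and 20 below both progenitors (8.34 in BN-Lx/Cub and 8.22 in SHR/OlaIpcv). Oprl1 had 24 above, 5 between and 1 below (10.39 and 10.49), and with batch-adjusted means 16 above and 14 between. Oprm1 had 18 above, 9 between and 3 below, but 6, 8 and 16 after the adjustment, so its position depended on that choice. The precursors kept mostly within the progenitor range, with 19 of 30 strains between for Pnoc and 20 of 30 for Pomc.

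In FXLE/LEXF, Oprd1 had 15 of 19 strains above both progenitors, as had Pnoc, and Pomc had 12 above, 0 between and 7 below, its progenitors being close to each other at 5.14 and 5.15. The median over all genes was 4 above, 9 between and 5 below, and 3.18% of genes had at least 15 strains above both. Most strains lay between for Oprk1 (13 of 19), whose progenitors stood at 8.17 and 7.90. Oprm1 had 7 above, 9 between and 3 below, and Oprl1 had 3, 9 and 7. The strains of this family shared 0 batches with their progenitors, and LE/Stm is the single animal with raised liver genes, so family and batch cannot be told apart in these positions.

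Strain means were also read for separate clusters, as the study had done. Normal mixtures gave 1 cluster in both families for Oprm1, Oprk1, Oprl1 and Pnoc. Pomc had 2 clusters in HXB/BXH, but the second was the single strain HXB2/Ipcv at 6.28 beside 29 strains around 5.16. For Oprd1 the mixture split off 3 strains around 5.85 from 27 around 5.42 in HXB/BXH, and the single animal of FXLE13/Stm in the other family. Neither split of Oprd1 remained when a gain of over 6 in the Bayesian information criterion (BIC) was required. The split of Pomc had a gain of 16.12, but of 2.86 with batch-adjusted strain means, and then did not remain by that margin.

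**Figure D3:**
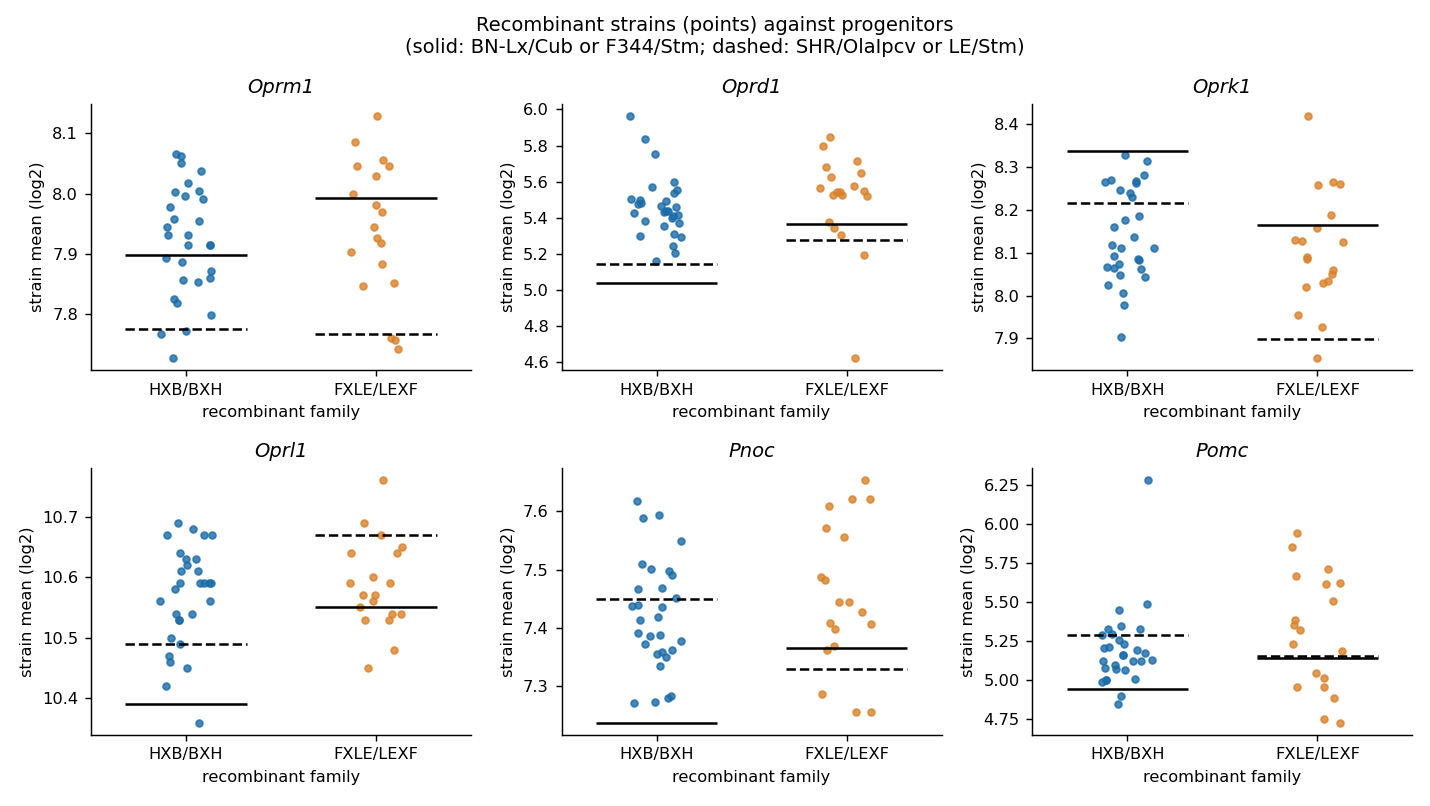
Strain means (y axis, log2) of the recombinant strains of each family (points, spread sideways for sight) beside the progenitors (solid line BN-Lx/Cub or F344/Stm, dashed line SHR/OlaIpcv or LE/Stm). All HXB/BXH points of Oprd1 lie above both lines, those of Oprk1 lie between or below, and HXB2/Ipcv stands alone at the top of Pomc.

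The 6 genes were then compared in 5 pairs of strains. No member passed at 5% FDR in any pair, where the share of all genes that passed was 4.51% for BN-Lx/Cub against SHR/OlaIpcv, 0.796% for F344/Stm against LE/Stm, 0.825% for SHR/OlaIpcv against WKY/NCrl, 0.959% for F344/NHsd against LEW/SsNHsd and 0.988% for SS/JrHsd against SR/JrHsd. A miss does not show that the strains had the same level, and the intervals were wide for Pomc and Oprd1. The animals of the progenitors BN-Lx/Cub and SHR/OlaIpcv overlapped in every member, where 38.9% of all genes had no overlap. Pomc stood at 4.71, 4.87 and 5.26 in BN-Lx/Cub and at 5.25 and 5.32 in SHR/OlaIpcv, a difference of -0.34 (95% interval -1.03 to 0.34, limma adjusted p = 0.629).

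SHR/OlaIpcv had lower Oprd1 than its normotensive relative WKY/NCrl without overlap, with 5.11 and 5.18 against 5.33, 5.62 and 5.85. It was the 1 member of 6 without overlap in this pair, where 40.5% of all genes had none. The difference was -0.45 (95% interval -0.94 to 0.03), with a limma adjusted p of 0.651. F344/NHsd and LEW/SsNHsd, strains often set against each other in studies of opioid intake, overlapped in every member (14.7% of all genes did not), and the largest difference was 0.13 for Pnoc (95% interval -0.13 to 0.39). For F344/Stm and LE/Stm, with 3 animals and 1, 4 of 6 members did not overlap, where 66.5% of all genes did not, the differences ran from -0.12 for Oprl1 to 0.27 for Oprk1, and the limma adjusted p was at least 0.517 for each member. The LE/Stm animal is the one with liver genes at 18.12, and its error is taken from the spread within other strains, so this pair says little on either line.

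The largest difference of the set was in Pomc between the Dahl salt-sensitive SS/JrHsd and the salt-resistant SR/JrHsd. The SS/JrHsd animals stood at 5.95, 5.96 and 6.46 and the SR/JrHsd animals at 4.76, 5.02 and 5.48, so the strains did not overlap. This held for 2 of 6 members, Pomc and Oprl1, and for 11.7% of all genes. SS/JrHsd was higher by 1.03 (95% interval 0.42 to 1.65), with an unadjusted p of 0.00112 from limma and an adjusted p of 0.0832, which misses the threshold. Both strains were sequenced in the same 2 batches, and a fit with a batch term gave 0.98 (limma adjusted p = 0.151). Within batch 8, SS/JrHsd 2 at 5.96 stood above SR/JrHsd 1 and 2 at 5.48 and 5.02, and within batch 11, SS/JrHsd 1 and 3 at 6.46 and 5.95 stood above SR/JrHsd 3 at 4.76. The title of SS/JrHsd 1 gives batch 8 where its other labels give batch 11. As the strains did not overlap, the order within batches was fixed whatever the batch labels, and it is no check on batch. Oprl1 did not overlap in this pair either, with 10.54, 10.67 and 10.70 in SS/JrHsd against 10.45, 10.49 and 10.53 in SR/JrHsd (difference 0.15, 95% interval -0.0003 to 0.30, limma adjusted p = 0.496).

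Some markers of the pituitary were higher in SS/JrHsd as well, and others were not. Of 11 listed pituitary genes 6 were in the table (Cga, Lhb, Pou1f1, Tbx19 and Ghrhr among them), and the growth hormone and prolactin genes were not in it. The mean level of the 6 was 3.73 to 4.53 in SS/JrHsd and 3.33 to 3.49 in SR/JrHsd, against a median of 3.65 over all animals. SS/JrHsd 1 and 2 had the highest and second highest values of all 197 animals, and SR/JrHsd 3 had the lowest.

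Cga, which encodes the alpha subunit shared by the pituitary glycoprotein hormones, stood at 3.81, 6.57 and 7.38 in SS/JrHsd and at 2.16, 2.41 and 2.42 in SR/JrHsd. Lhb, the beta subunit of luteinizing hormone, stood at 5.02 to 5.55 against 4.715 to 4.896. Tbx19, the factor that pituitary corticotrophs need to make Pomc, overlapped between the strains (7.84 in each SS/JrHsd animal and 7.43 to 8.31 in SR/JrHsd). Pou1f1, a factor of other pituitary cell types, ran the other way with hardly a gap, at 0.678, 0.712 and 0.780 in SS/JrHsd and at 0.782, 0.840 and 1.02 in SR/JrHsd, and Ghrhr overlapped. The difference in the list mean therefore came mainly from Cga. No measured marker was at 0, but Pou1f1 and Ghrhr were near the floor of the table in every animal, between 0.60 and 1.14 and between 0.73 and 1.29.

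SS/JrHsd 3 had a pituitary mean of 3.73, close to the median animal at 3.65. Its Cga of 3.81 was above the median of 3.03 over all animals and above each SR/JrHsd animal. Pomc stood at 5.95 in SS/JrHsd 3, above each SR/JrHsd animal. The mean of 10 hypothalamus markers also ran higher in SS/JrHsd, 7.04 to 7.73, than in SR/JrHsd, 6.59 to 7.19. Not all of them did: the strain means of Agrp (8.31 against 8.33) and Npy (9.76 against 9.79) were slightly lower in SS/JrHsd. Each of the others had a higher mean in SS/JrHsd, by least for Crh (6.31 against 6.26) and by most for Avp (7.52 against 6.61). HXB2/Ipcv, the highest strain of Pomc, had pituitary means of 3.71 and 4.30 and Cga at 2.85 and 6.25. The part of pituitary and hypothalamus content in these Pomc levels was not tested.

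**Figure D4:**
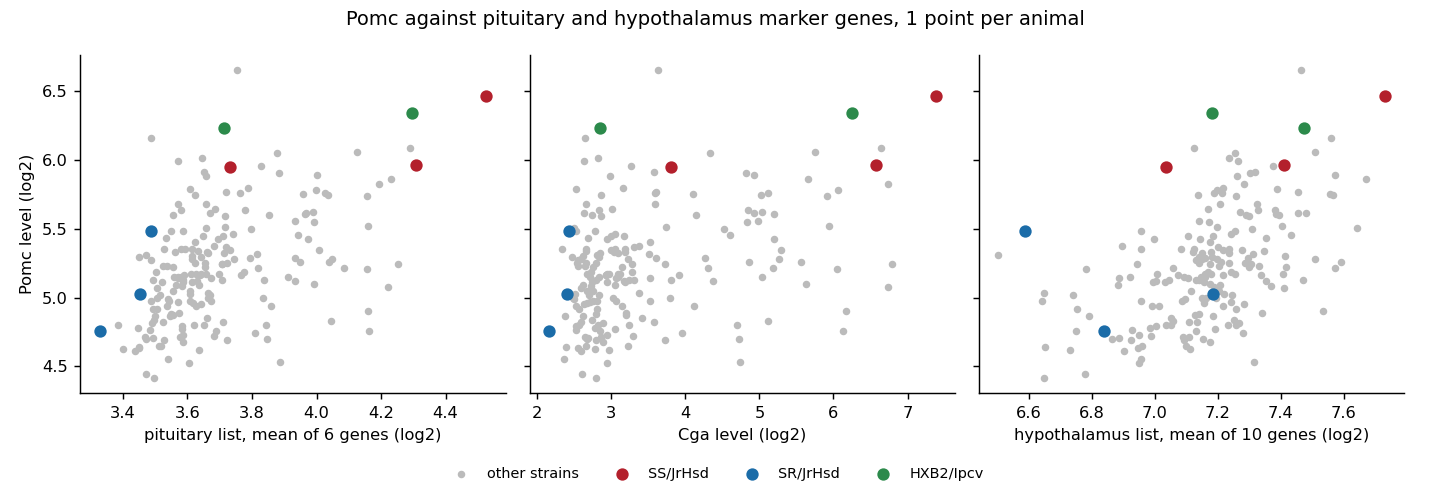
Pomc level (y axis, log2) of each animal against the mean of 6 pituitary markers, the level of Cga and the mean of 10 hypothalamus markers (x axes, log2). SS/JrHsd animals (red) lie high on Pomc, and 2 of them also lie far to the right on Cga, at 6.57 and 7.38, while SR/JrHsd animals (blue) lie at the left of the pituitary panels and HXB2/Ipcv (green) includes 1 animal with low Cga.

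Across all strains, deviations of animals from their strain mean were compared with those of the marker lists. Of 48 pairs of a member and a list, 20 passed a two-sided permutation test after Benjamini-Hochberg adjustment over the 48, 15 positive and 5 negative, over 192 animals. By rank correlation 18 pairs passed. All 6 members passed with the hypothalamus list. An r with that list as far from 0 was found for 0.206% of all genes for the value of Pomc, 0.839% for Pnoc, 1.37% for Oprl1, 2.97% for Oprm1, 10.9% for Oprk1 and 22.9% for Oprd1, so such values were common for the last pair. Pomc followed the hypothalamus list (r = 0.55, rho = 0.57, permutation p = 1e-05, the smallest that 100000 permutations give, adjusted p = 0.000192) and the pituitary list (r = 0.44, rho = 0.43, permutation p = 1e-05, adjusted p = 0.000192). Without the 2 animals farthest from the median of the list these r were 0.55 and 0.42. For the pituitary list 0.0671% of genes were as far from 0 as Pomc.

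Pnoc, made by scattered neurons of many regions, followed the hypothalamus (r = 0.46), thalamus and habenula (r = 0.40) and interneuron lists (r = 0.31), and also the pituitary (r = 0.27) and striatum lists (r = 0.25). Oprm1, which the medial habenula and thalamus express strongly, followed the thalamus and habenula list (r = 0.44, rho = 0.39, permutation p = 2e-05, adjusted p = 0.000192), and the hypothalamus list (r = 0.38). Oprk1 followed the hypothalamus list (r = 0.28). Oprd1 followed the striatum (r = 0.35), interneuron (r = 0.30) and hypothalamus lists (r = 0.22), and Oprl1 the hypothalamus (r = 0.43) and striatum lists (r = 0.33). The shares of all genes for the hypothalamus list are given above. With the thalamus and habenula list 0.571% of genes were as far from 0 as Oprm1 and 1.36% as Pnoc. For the pituitary list the share was 2.48% for Pnoc. With the striatum list 8.30% of genes were as far from 0 as Oprd1, 12.1% as Oprl1 and 27.0% as Pnoc. With the interneuron list it was 13.1% for Oprd1 and 11.7% for Pnoc, so values with the striatum and interneuron lists were not rare. Negative relations were those of Oprl1 with the neuron (r = -0.40) and cerebellum lists (r = -0.31), Oprd1 with the neuron list (r = -0.31), Oprm1 with the cerebellum list (r = -0.24) and Oprk1 with the interneuron list (r = -0.22). Of these, the relation of Oprm1 (rho = -0.20, adjusted permutation p = 0.0819) and that of Oprk1 (rho = -0.20, adjusted permutation p = 0.0539) did not pass by rank. Of all genes, 12.8% were as far from 0 as Oprl1 with the neuron list and 23.4% as Oprd1, 8.98% as Oprl1 with the cerebellum list and 18.2% as Oprm1, and 25.2% as Oprk1 with the interneuron list, so these values were ordinary.

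No member passed with the liver list. With batch as a term, 1 of the 20 pairs, Oprd1 with the hypothalamus list, was lost (r = 0.20). Both values of a pair come from the same library and its scaling. The animal's median level over all genes followed Oprd1 (r = 0.58), Pomc (r = 0.49), Pnoc (r = 0.43) and Oprl1 (r = 0.22). It ran against Oprk1 (r = -0.34) and Oprm1 (r = -0.18), and its part in these relations was not tested.

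Of the 15 pairs of members, 10 passed, 9 of them positive. Oprm1 and Oprk1 varied together within strains (r = 0.46, rho = 0.45, permutation p = 2e-05, adjusted p = 1e-04 over 15 pairs, 192 animals). Of all genes, 0.197% had an r with Oprm1 as far from 0. Oprd1 varied with Pnoc to the same degree (r = 0.46, rho = 0.44, permutation p = 1e-05, adjusted p = 7.5e-05), but 18.4% of genes were as far from 0 with Oprd1, so that value is common in the table. Pnoc and Pomc gave r = 0.39 within strains (adjusted permutation p = 7.5e-05), where 26.6% of genes were as far from 0 with Pnoc, and r = 0.55 over 69 strain means. Oprd1 and Pomc gave r = 0.35 within strains (adjusted permutation p = 0.000975), and 35.1% of genes were as far from 0 with Oprd1. Oprm1 and Oprl1 gave r = 0.33 (adjusted permutation p = 0.00146), and 1.93% of genes were as far from 0 with Oprm1. The nociceptin receptor gene Oprl1 and its ligand's gene Pnoc gave r = 0.35 (adjusted permutation p = 0.00024), and 8.68% of genes were as far from 0 with Oprl1. The other positive pairs were Oprd1 with Oprl1 (r = 0.37, with 33.1% of genes as far from 0), Oprk1 with Oprl1 (r = 0.31, 30.9%) and Oprl1 with Pomc (r = 0.20, 37.3%). A negative relation that passed was that of Oprd1 and Oprk1 (r = -0.25, adjusted permutation p = 0.0183), and 50.2% of genes were as far from 0 with Oprd1.

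Repeat libraries of 1 animal showed how far these values move without any change of genotype. SHR/OlaIpcv animal 1 was sequenced in 12 batches, and its Pomc level ran from 4.42 to 5.99 with a median of 5.48. The SD over these libraries was 0.560, larger than the SD of 0.386 between animals within strains. For Oprl1 the SD was 0.134 against 0.0892, for Oprm1 0.202 against 0.158, for Oprd1 0.272 against 0.273, for Pnoc 0.165 against 0.162 and for Oprk1 0.136 against 0.184. The median of this ratio over all genes was 1.04, and 8.80% of genes had a ratio at least as high as that of Pomc and 6.25% as that of Oprl1. In the 6 libraries of SHR/OlaIpcv animal 4 the ratio was 0.60 for Oprl1, 0.91 for Pomc and 1.43 for Pnoc, where the median over genes was 0.849. Of all genes, 3.30% had a ratio there at least as high as that of Pnoc.

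In the batch 11 library of SHR/OlaIpcv animal 1, Oprm1 and Oprk1 were at their highest (8.33 and 8.46). Oprd1, Oprl1, Pnoc and Pomc were at their lowest there (4.65, 10.25, 7.16 and 4.42). In the batch 16 library Pomc was at its highest (5.99) and Oprm1 and Oprk1 at their lowest (7.50 and 7.91). Across the 12 libraries r was 0.91 for Pnoc with Pomc, 0.93 for Oprd1 with Pnoc and 0.90 for Oprm1 with Oprk1. The median over all genes was 8.185 in the batch 11 library, the lowest of all libraries, and 8.375 in the batch 16 library. The part of the library median in these r was not tested. These are libraries of 1 animal, so the r are given as a description.

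**Figure D5:**
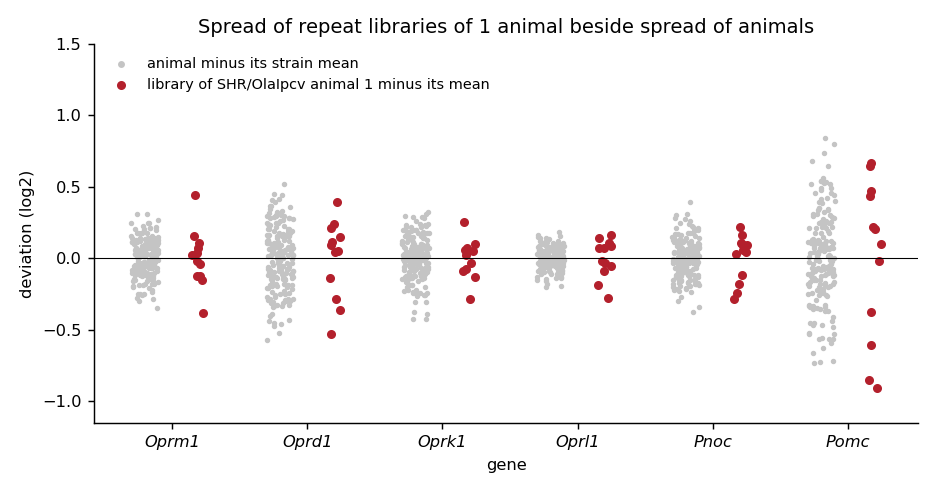
Deviation (y axis, log2) of each animal from its strain mean (grey) and of each of the 12 libraries of SHR/OlaIpcv animal 1 from their mean (red), for the 6 genes. The red points of Pomc spread over 1.58 units, while those of Oprk1 span 0.54.

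At the level of transcripts, 15 RefSeq transcripts of the 6 genes were measured. A strain effect passed in 1 of 15, where 13.9% of 45922 transcripts passed. It was NM_013071.2 of Oprm1 (R2 0.54, limma adjusted p = 0.00428), although the gene as a whole had not passed. Among strains with more than 1 animal, BXH10/Cub animals stood at 2.00, 2.09 and 2.93 and BXH13/Cub animals at -0.79, 2.09 and 5.06, against 6.26, 6.70 and 7.02 in HXB5/Ipcv and 6.42, 6.59 and 6.92 in FXLE14/Stm. BXH10/Cub was low in each animal, whereas BXH13/Cub ranged widely.

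The other measured Oprm1 transcript, NM_001304734.1, had a limma adjusted p of 0.242. Among strains with more than 1 animal it was lowest in FXLE14/Stm (4.69, 6.12 and 6.94) and highest in MWF/Hsd (7.38, 7.83 and 7.88). The 2 transcripts ran against each other over 69 strain means (r = -0.42), and within strains r was -0.13. Reads of transcripts of 1 gene are shared out by the estimation, so such a split is uncertain. The call on NM_013071.2 held with batch as a covariate (limma adjusted p = 0.00635) and without the animals numbered 1 (0.0138), but not without those numbered 2 (0.485) or 3 (0.0949). Of Oprk1, NM_001318742.1 and NM_017167.3 had identical values, as had NM_001318947.1 and NM_031569.4 of Oprl1.

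The genes most like each member were sought among 3262 genes with a symbol, a strain effect and a level above the table's median, by r of 69 strain means. They were Nova1 (r = 0.62), Slc17a6 (0.60) and Peg3 (0.59) for Oprm1, and Ankrd34b (0.66), Slc6a15 (0.60) and Slc17a6 (0.60) for Oprk1. Slc17a6, which encodes a vesicular glutamate transporter, thus stood in both lists. For Oprd1 they were Nphp4 (0.68), Fam219a (0.67) and Sgsm2 (0.67), and for Oprl1 Usp11 (0.65), Mtg2 (0.60) and Copg1 (0.57). Pnoc had Smarcd3 (0.65), Borcs6 (0.63) and Dusp26 (0.63), and Pomc had Fjx1 (0.60), Bcam (0.59) and Vasp (0.58). Each is the top of a long list, so the size of r is a description.

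The measured neighbours on the chromosome, up to 5 on each side by the order of RefSeq genes in GRCr8, were also read in the recombinant families, where neighbouring genes share progenitor segments. Oprl1 lies on chromosome 3 and had 8 such neighbours. Among them Polr3k, a subunit of RNA polymerase III, had the strongest strain effect (R2 0.86, limma adjusted p = 2.32e-27), and its strain means ran against those of Oprl1 in HXB/BXH (r = -0.58) and with them in FXLE/LEXF (r = 0.47). Rgs19, a regulator of G protein signalling that sits next to Oprl1, gave r of 0.09 and 0.11. Pomc on chromosome 6 gave negative r with Asxl2 (r = -0.73 and -0.48), and Oprm1 on chromosome 1 ran with Rgs17, another regulator of G protein signalling, in both (r = 0.47 and 0.77). For scale, 95% of all genes had an r with Pomc between -0.50 and 0.61 in HXB/BXH and between -0.53 and 0.55 in FXLE/LEXF, so Asxl2 lay outside that range in HXB/BXH and inside it in FXLE/LEXF. For Oprl1 the range was -0.52 to 0.56 in HXB/BXH and -0.47 to 0.47 in FXLE/LEXF, with Polr3k just outside its edge in each. For Oprm1 it lay between -0.36 and 0.35 in HXB/BXH and between -0.70 and 0.69 in FXLE/LEXF. Polr3k, Asxl2 and Rgs17 each had the r farthest from 0 in HXB/BXH among the neighbours of its gene, so these are picked values. With batch-adjusted strain means r in HXB/BXH and FXLE/LEXF was -0.41 and 0.53 for Polr3k, -0.80 and -0.61 for Asxl2, and 0.34 and 0.78 for Rgs17.

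Other genes of opioid signalling were read from a list of 48, of which 47 were in the table. Strain effects passed in 20 of 47, where 37.3% of all genes passed, and the median R2 of the list was 0.46. Both other opioid precursors passed: Pdyn, the dynorphin precursor, with R2 0.66 and Penk, the enkephalin precursor, with 0.59. These exceed the values of Pnoc (0.38) and Pomc (0.46). Among melanocortin genes, which serve other products of Pomc, 4 of 5 passed. They were Agrp, the antagonist of the melanocortin receptors, with 0.82, Mrap2, an accessory protein of those receptors, with 0.68, Mc4r with 0.54 and Atrn with 0.53.

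Of the genes that process neuropeptides, 3 of 6 passed (Pcsk1, Pam and Scg5), and of the peptidases that break opioid peptides down, 2 of 6 (Ece1 and Anpep). Of G proteins, arrestins, receptor kinases and their regulators, 5 of 15 passed (Rgs4 with the highest R2, 0.58, then Arrb1, Gnao1, Rgs19 and Rgs9). Of effectors, 4 of 9 passed: the potassium channel genes Kcnj3 and Kcnj6, the calcium channel gene Cacna1a and the adenylyl cyclase gene Adcy8. None of 4 other genes named after opioids passed. In the 5 pairs of strains 1 gene of the list passed: Agrp was higher by 0.39 in BN-Lx/Cub than in SHR/OlaIpcv (limma adjusted p = 0.00292).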

How the data were processed

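Stranded, ribosome-depleted total RNA libraries of rat brain were sequenced by the authors. Per the labels, reads were trimmed with cutadapt 1.9.1, handled with Bowtie2 (2.3.4.3 or 2.4.5) and HISAT2 (2.1.0 or 2.2.1), assembled with StringTie (1.3.5 or 2.2.1), quantified with RSEM (1.3.1 or 1.3.3) and transformed with DESeq2. The main table held RefSeq genes of release v7.1 as log2 values that the authors had deposited after scaling across libraries. Which of these steps made it, and on which genome build, is not given in the sources used here. The authors state for an earlier release that a factor of unwanted variation was removed, and in the main table batch accounted for a median of 0.696% of the spread among libraries, below the 7.51% expected without any batch effect, so batch means had been made nearly equal. Spike-in rows (73) were left out, leaving 20859 genes, and 5 values of the table exceeded 30, beyond what a log2 read count can reach. Depth is unknown.

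Within a strain, libraries sharing a replicate number were taken as 1 animal and averaged, and p-values measure the spread between these animals. Strain effects and contrasts were fitted in limma 3.58.1 (R 4.3.3), with adjustment over all genes at 5% FDR, clusters of strain means in mclust 6.1.1 with at most 3 clusters, and correlations by 100000 permutations within strains (numpy 2.4.6). The fits were tested on simulated data. The named genes were the 6 members, for each the 3 most alike and up to 5 neighbours on each side, the pathway genes of highest R2, and those past a contrast. Pathway genes named beyond the 5 of highest R2 were chosen after their values were seen. The members, lists and left-out libraries were chosen with earlier results of these data known. Batch-adjusted strain means are those of a fit with batch as a covariate. The alternatives were a batch covariate, a replicate block, trend and robust variance, genes above the table median, a common library median, 1 library per animal, left-out libraries or animals, and other deposited tables, whose effect is given at the end. Replicate numbers did not pair the animals (mean r of deviations 0.01 for the same number and -0.01 for different numbers). The values of 1 listed pituitary marker are not reported here on their own.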

Additional observations from a re-analysis of the deposited data

Results flagged for a closer look

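In the 6 libraries of SHR/OlaIpcv animal 4, Oprl1 stood at 10.56 in batch 17 and between 10.41 and 10.46 in the other 5, a gap that is wide for the range of 6 libraries. The test was run on the 6 genes in these libraries and in the 4 libraries of BN-Lx/Cub, which come from 3 animals, 12 sets of values in all, of which 1 was picked out, and chance alone picks out about 1 in 20. The other genes had no library so far from the rest in these sets.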

How the results depend on the processing

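Of 897 comparisons of a result with an alternative, 760 kept their direction and their side of the threshold, or moved little, 41 lost significance, 7 gained it, 28 changed sign and 61 moved by more. No contrast called a member under any alternative. With batch as a covariate, R2 over all strains rose to 0.5002 for Oprd1 and 0.5126 for Pomc, and the median over all genes rose to 0.5088. In HXB/BXH R2 rose to 0.5522 for Oprd1, where the median over all genes was 0.4722. These values of Oprd1 and Pomc were past the threshold. In HXB/BXH 6694 in place of 3992 genes were called. Between BN-Lx/Cub and SHR/OlaIpcv it was 61 in place of 940, and between SHR/OlaIpcv and WKY/NCrl 13 in place of 172. Of member transcripts 2 in place of 1 were called, and of pathway genes 32 in place of 20. Oprm1 then turned from 0.12 to -0.09912 between BN-Lx/Cub and SHR/OlaIpcv. Other tables gave R2 of 0.6496 (reconstruction, where the feature of highest mean of 8 was taken) and 0.4492 (v5) for Oprd1 and 0.6409 (v5) for Pomc, and the reconstruction called 17047 of its 84239 features. The v5 and v6 tables hold fewer strains. Among genes above the table median, where fewer genes were tested, with their own adjustment, 3579 genes were called over all strains (7785 among all genes), 1532 in HXB/BXH, 384 in FXLE/LEXF and 1269 in the classic inbred strains, and 469, 18, 52, 33 and 86 in the 5 pairs of strains in the order given above. With 1 library per animal 548 genes were called between BN-Lx/Cub and SHR/OlaIpcv. Of Oprd1, 1 cluster was left in each family with a BIC margin of 6, and 1 in HXB/BXH with batch-adjusted means. Pomc between F344/Stm and LE/Stm turned from -0.01 to 0.06333 with libraries at a common median. The cause was not tested for any of these.

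The replicate block, which is no pairing of animals since same-numbered animals did not deviate together, called 410 genes between BN-Lx/Cub and SHR/OlaIpcv and 98 between SHR/OlaIpcv and WKY/NCrl, turned Pomc to 0.03785 between F344/Stm and LE/Stm, and changed no other call on a member.

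With fewer animals a strain, R2 is higher even when strains do not differ. Over all strains the R2 expected without strain differences was 0.5391 to 0.5538 without 1 animal number, against 0.3724 with all animals. The median over all genes was then 0.5878 to 0.628, against 0.4507. In HXB/BXH the expected value was 0.4915 to 0.5088 and in the classic inbred strains 0.5238 to 0.5455. With 1 animal number or 1 animal left out, the values ranged as follows. For the strain effect over all strains, they ran from 3003 to 6065 for genes called, 0.6792 to 0.7121 for Oprl1, 0.5441 to 0.7357 for Pomc. For the strain effect in HXB/BXH, they ran from 1677 to 1941 for genes called, 0.6562 to 0.6729 for Oprl1. For the strain effect in FXLE/LEXF, they ran from 60 to 1359 for genes called. For the strain effect in inbred strains, they ran from 1199 to 2409 for genes called, 0.6901 to 0.872 for Oprl1. For BN-Lx/Cub against SHR/OlaIpcv, they ran from 202 to 1777 for genes called, -0.2637 to 0.09609 for Oprd1. For F344/Stm against LE/Stm, they ran from -0.1192 to 0.1541 for Pomc. For SHR/OlaIpcv against WKY/NCrl, they ran from 37 to 121 for genes called, -0.0007957 to 0.1663 for Oprk1, -0.03742 to 0.05674 for Oprl1, -0.1396 to 0.006408 for Pnoc, -0.5258 to 0.149 for Pomc. For F344/NHsd against LEW/SsNHsd, they ran from 82 to 155 for genes called, -0.124 to 0.02038 for Oprm1, -0.2054 to 0.07612 for Oprd1, -0.006188 to 0.09037 for Oprk1, -0.09776 to 0.1138 for Pomc. For SS/JrHsd against SR/JrHsd, they ran from 23 to 348 for genes called, -0.3626 to 0.00599 for Oprd1, -0.1396 to 0.1928 for Oprk1, -0.04127 to 0.1658 for Pnoc. For the transcripts of the members, they ran from 0 to 1 for transcripts called. For the member genes with marker lists, they ran from 9 to 15 for pairs called. For the pathway list, they ran from 4 to 16 for genes called. The transcripts and marker lists without animals, and the transcripts under covariates, were alternatives chosen after seeing the data. F344/Stm against LE/Stm gave no value without animals numbered 2 or the libraries that stand apart, since LE/Stm has the single animal 2.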

Other observations

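In the 6 libraries of SHR/OlaIpcv animal 4, Pnoc ran from 7.18 to 7.77 (SD 0.231) and Pomc from 4.79 to 5.66 (SD 0.350), both lowest in batch 15 and highest in batch 19, while Oprm1, Oprd1, Oprk1 and Oprl1 had SDs between 0.0533 and 0.0917.

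Linc00176, a non-coding neighbour of Oprl1, gave r = 0.58 with it over FXLE/LEXF strain means and 0.13 over HXB/BXH strain means. Pomc ran against Dnajc27 over FXLE/LEXF strain means (r = -0.66) and less far over HXB/BXH strain means (r = -0.25), and the difference was not tested.

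The highest single Pomc level, 6.65, was in LEXF7B/Stm 3, whose mean of pituitary markers was 3.75, whose Cga level was 3.62 and whose mean of hypothalamus markers was 7.46.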
